A study of Phaffia rhodozyma with 29 samples.

Results

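Genes of the red yeast Xanthophyllomyces dendrorhous (Phaffia rhodozyma) were gathered whose transcripts shifted when CYP61 was interrupted. When SRE1 was deleted as well they shifted in the same direction, by an amount that could differ within a set limit. They were 133 of the 6469 counted genes, 49 higher and 84 lower than in wild type (N). The other wild-type group, wild type (Ne), had no part in the choice, and the lower members had a median difference of -0.96 there too. Members were chosen from the measured levels. A level is the mean over 3 libraries of log2(CPM + 1), where CPM is a gene's count per 1000000 counts of its library. A member lay at least 0.6 above, or at least 0.6 below, the wild type (N) level in both cyp61- and the cyp61- sre1- double mutant, and its levels in these mutants differed by less than 0.5.

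RNA-seq covered 18 libraries in 6 groups of 3, all derived from the parental strain CBS 6938 and grown in standard culture to late exponential phase. The groups are wild type (N) and wild type (Ne), which the labels tell apart only by that suffix, a strain with SRE1 deleted (sre1-), a strain with an interrupted CYP61 locus (cyp61-), the strain with both changes, and a strain with FLAG-tagged Sre1 whose CYP61 state the labels of its RNA-seq libraries do not give. The labels call the 3 libraries of a strain biological replicates and do not say whether a strain was kept as 1 clone. The count columns of the tagged strain, both strains with interrupted CYP61 and wild type (N) are headed as paired and trimmed, while the columns of wild type (Ne) and sre1- carry neither word, so the tables form 2 sets, and strain and set cannot be told apart across them.

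CYP61 encodes the C-22 sterol desaturase, a cytochrome P450 of the last steps of ergosterol synthesis, and a strain lacking it makes other sterols in place of ergosterol. SRE1 codes for a member of the SREBP family of membrane-bound transcription factors. In fungi these factors are held in a membrane as precursors, are cut when sterols are short, and then raise genes of sterol synthesis. The double mutant therefore carries a changed sterol pathway without this factor.

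Genes are numbered in the files without a name, product, length or coordinate, so roles cannot be given and lists of sterol, mevalonate, carotenoid and stress genes were not run. For the same reason the levels of SRE1 and CYP61 were not checked. At most 2 identifiers are printed per direction for each way of ranking. Genes singled out after their values were seen, and neighbours by number, come on top of these. No annotation was used here, and near-identical genes may share reads.

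Library totals ran from 9300589 counts in tagged A to 20663214 in tagged C. Spearman correlations within a group were lowest in wild type (Ne), 0.945 to 0.990, and in sre1-, 0.954 to 0.994. In both groups the C library stood apart from A and B. Counts and folds against wild type (Ne) that moved most without them are given both ways.

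Few genes met the rule. In cyp61-, 1177 genes lay at least 0.6 above wild type (N), and the 49 higher members are 4.16% of them. Below wild type (N) by that amount lay 569 genes in cyp61-, of which the 84 lower members are 14.8%. In the double mutant 135 genes lay that far above wild type (N) and 265 that far below, and members are 36.3% and 31.7% of these. At the edge of the rule, the 2 higher members nearest to 0.6 had a smaller difference of 0.601 and 0.614, and the 2 genes just outside had 0.594 and 0.582. For lower genes, these values were 0.601 and 0.605 inside, 0.598 and 0.594 outside.

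**Figure D1:**
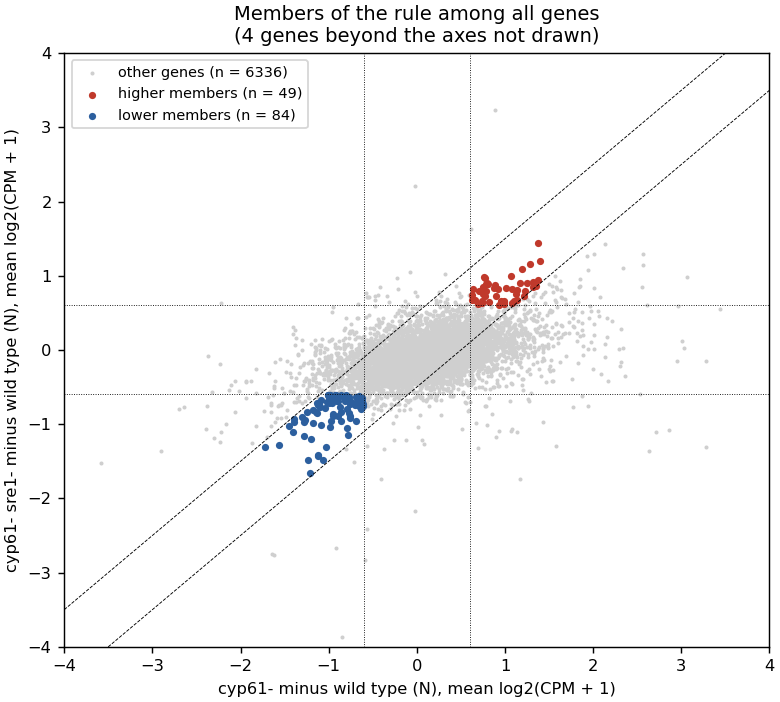
Difference from wild type (N) in mean log2(CPM + 1) for cyp61- (x axis) and the cyp61- sre1- double mutant (y axis), 1 point per gene, with the 49 higher members in red and the 84 lower members in blue. Dotted lines mark 0.6 and dashed lines the limit of 0.5 between the mutants, so the members are the corners of the cloud that the rule cuts out.

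Among the higher members the shifts were modest. The difference from wild type (N) had a median of 0.95 in cyp61- (0.62 to 1.40) and of 0.81 in the double mutant (0.60 to 1.44). In 34 of the 49 the double mutant lay below cyp61-, within the allowed 0.5, but this order turns with scaling: in the TMM-scaled fit it lay above cyp61- in 28. The lower members had medians of -0.95 in cyp61- (-1.72 to -0.61) and -0.76 in the double mutant (-1.65 to -0.60). With TMM scaling these medians were -1.05 and -0.69. In 56 of the 84 the double mutant lay above cyp61-, nearer to wild type (N), and in 72 in the TMM-scaled fit. Without TMM scaling, both differences from wild type (N) reached 1, a doubling on the log2 scale, in 4 higher and 13 lower members. All 6 mutant libraries lay above all 3 of wild type (N) in 41 higher members, against 5.46% of all genes tested. They lay below in 71 lower members, against 6.73%. The rule selects for this, so nothing is read from these counts.

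In the edgeR fit of all libraries, 30 of the 49 higher members were called, at an adjusted p under 0.05, as higher in cyp61- against wild type (N) (16.8% of all genes tested). Of the 84 lower members, 75 were called lower (15.2%, with 32% called in either direction). In the double mutant against wild type (N), 5 higher members (0.225% of all genes) and 11 lower members (0.546%) were called, with 0.771% of all genes called in either direction. The 5 were led in fold by g4726 and g5772. The change in the double mutant therefore missed the threshold in 44 of the 49 higher and 73 of the 84 lower members. Between the double mutant and cyp61-, g3202 and g2088, both lower members, were called, higher in the double mutant (10.8% of all genes were called higher and 11.9% lower, 22.8% in all). These contrasts chose the members and carry no support.

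The higher member with the largest smaller difference, g3012 on contig 0, stood at 26.3, 21.8 and 17.1 CPM in the A, B and C libraries of wild type (N). It stood at 36.4, 61.4 and 83.1 CPM in cyp61- and at 62.5, 39.7 and 86.3 CPM in the double mutant. All 6 mutant values exceed the wild type (N) values, and the mutant ranges overlap almost fully. The group means were 21.7 ± 4.57 CPM (SD, n = 3), 60.3 ± 23.4 and 62.8 ± 23.3, a 2.77-fold and a 2.89-fold difference from wild type (N). In the tagged strain it stood at 3.98, 8.84 and 18.6 CPM, so 2 of those 3 libraries lay below every wild type (N) library.

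Its neighbour by number, g3013, was second in rank. It stood at 18.6, 15.2 and 13.3 CPM in wild type (N), at 33.9, 47.1 and 49.0 in cyp61- and at 41.8, 24.2 and 49.4 in the double mutant. The mutants again did not overlap with wild type (N), and the lowest double mutant library was B, as for g3012. Mean CPM was 2.76-fold that of wild type (N) in cyp61- and 2.45-fold in the double mutant. Over all 18 libraries the log2 levels of g3012 and g3013 had a Pearson correlation of 0.97, given as a description of libraries that share strain and depth.

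The other 2 higher members with both differences of at least 1, g3921 and g3933 on contig 9, were singled out after their values were seen. Gene g3921 stood at 28.7, 27.6 and 24.9 CPM in wild type (N), at 51.5, 81.0 and 73.5 in cyp61- and at 74.9, 36.2 and 86.8 in the double mutant. Gene g3933 was nearly equal to it in each library, with a ratio of 0.803 to 1.40 (median 0.986) over 18 libraries and a correlation of 0.987. The pair g3920 and g3934, which flank these by number, also ran together (median ratio 0.989, correlation 0.989). Such equal counts occur when near-identical copies share reads, so these 4 members are uncertain as separate genes. Whether they are copies was not tested.

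The higher member with the largest share of counts, without correction for gene length, was g5274 on contig 2. It stood at 2533, 2494 and 2921 CPM in wild type (N), at 4121, 6141 and 3480 in cyp61- and at 6450 (A), 3976 (B) and 4182 (C) in the double mutant. Gene g908 on contig 3 came next, with 2032 ± 199.9 CPM in wild type (N), 3558 ± 908 in cyp61- and 3865 ± 1094 in the double mutant. In both genes every mutant library lay above every wild type (N) library. For g5274, however, wild type (Ne), whose values are given below, overlapped both mutants. Together the 49 higher members took 1.60% of counts over the 9 libraries of the rule, and the 84 lower members 0.556%.

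Among lower members, g3682 on contig 0 led by rank and by share of counts. It stood at 994, 1208 and 1080 CPM in wild type (N), at 479, 358 and 292 in cyp61- and at 405, 446 and 503 in the double mutant. No mutant library came near the wild type (N) range. Mean CPM was 0.344 times that of wild type (N) in cyp61- and 0.413 times in the double mutant. It stood at 411, 367 and 349 CPM in the tagged strain, at 594, 559 and 346 in wild type (Ne) and at 369, 526 and 269 in sre1-. Wild type (N) was thus the highest of all groups, and wild type (Ne) overlapped the mutants.

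Gene g216 on contig 1 was the second lower member by rank. It stood at 55.2, 79.3 and 104 CPM in wild type (N), at 44.2, 32.3 and 25.2 in cyp61- and at 26.7, 30.9 and 42.8 in the double mutant. The groups did not overlap, although wild type (N) A and cyp61- A lay close to each other. In the tagged strain it stood at 6.02, 6.66 and 7.21 CPM, below every other library. In wild type (Ne) the C library stood apart, at 204 CPM against 28.9 and 28.1 in A and B.

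The second lower member by share of counts, g456 on contig 1, shows how a member can rest on part of a group. It stood at 355, 616 and 737 CPM in wild type (N), at 893, 154 and 169 in cyp61- and at 349.7, 332 and 394 in the double mutant. Library cyp61- A lay above all of wild type (N), and double mutant C lay above wild type (N) A, so neither mutant was separated from wild type (N). It entered the rule with differences of -0.93 and -0.61.

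**Figure D2:**
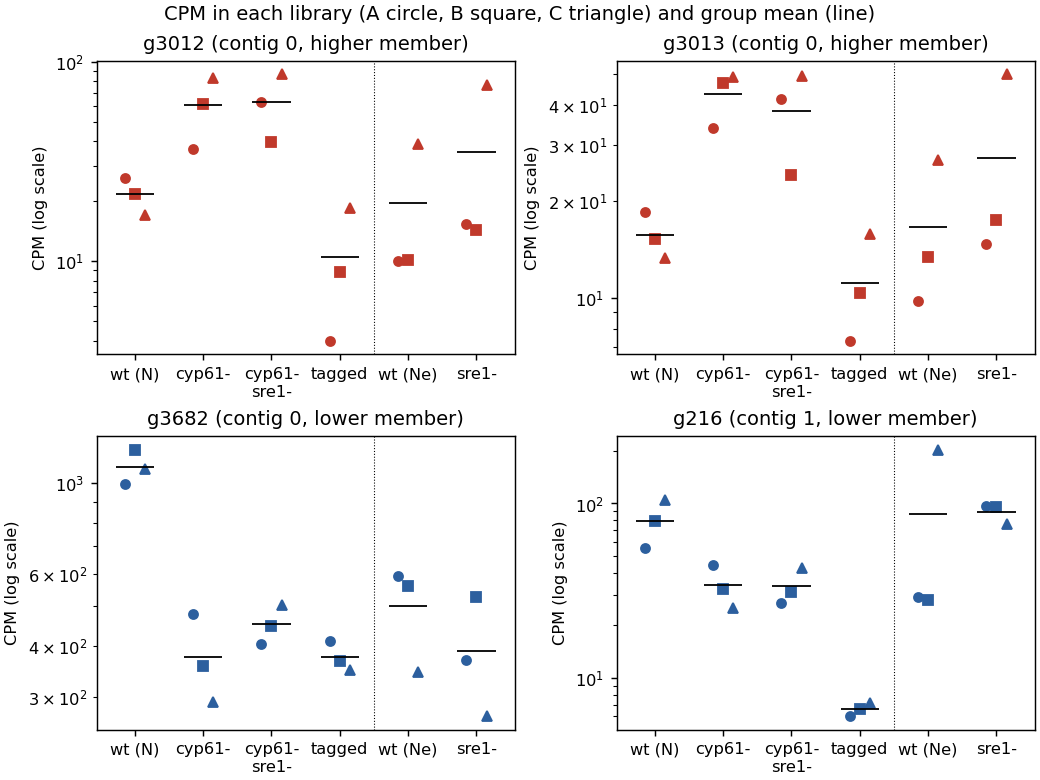
CPM on a log axis in each library for the 2 higher members (g3012, g3013) and the 2 lower members (g3682, g216) of highest rank, by group, with the group mean as a line and a dotted line between the sets of count tables. Both mutants lie above wild type (N) for g3012 and g3013 and below it for g3682 and g216, and the C library lies apart in wild type (Ne) for g3012 and g216 and in sre1- for g3012.

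The members varied more between replicates than the typical gene. The median SD of log2 levels among the higher members was 0.289 in cyp61- and 0.287 in the double mutant, against 0.171 and 0.215 over all genes. Among the lower members it was 0.211 and 0.252. The double mutant libraries were unequal. Measured from the wild type (N) level, higher members had a median of 1.01 in double mutant A against 0.69 in B and 0.66 in C, and lower members had -0.91, -0.59 and -0.82. In cyp61-, library A was nearest to wild type (N) in the higher members, with a median of 0.75 against 1.04 in B and 1.02 in C.

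The same differences were then measured in libraries that the choice had not used. For each letter, genes were chosen by the rule from the libraries of the other letters, and the mutant library of the left-out letter was set against wild type (N) of that letter. Genes chosen as higher without A, B or C numbered 33, 61 and 77, of which 22, 37 and 38 are members of the full list. Their median difference in the left-out cyp61- library was 0.49, 1.03 and 1.01, against 0.06, 0.02 and 0.28 over all genes. In the left-out double mutant library it was 0.80, 0.42 and 0.47, against -0.11, 0.05 and -0.14. All 6 medians thus kept the chosen direction, and all 3 of the double mutant and that of cyp61- A were smaller than the medians of the full rule.

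The share of these genes that again reached 0.6 in the left-out double mutant library was 63.6%, 31.1% and 36.4%, against 5.24%, 3.49% and 2.40% of all genes. For cyp61- it was 39.4%, 77.0% and 76.6%, against 17.6%, 13.1% and 30.8%. Most of the genes chosen as higher therefore did not reach the threshold again in double mutant B or C.

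Genes chosen as lower without A, B or C numbered 50, 108 and 118, of which 41, 59 and 65 are members of the full list. Their left-out median was -0.67, -0.78 and -0.73 in cyp61- and -0.81, -0.33 and -0.58 in the double mutant. The same direction was seen in 92.0%, 96.3% and 92.4% of them in cyp61-, against 43.3%, 45.2% and 29.4% of all genes. In the double mutant it was seen in 100% (50 of 50), 75.9% and 91.5%, against 61.2%, 41.4% and 66.7%. They reached 0.6 again in 74.0%, 27.8% and 45.8% in the double mutant, against 10.3%, 3.57% and 8.12% of all genes. In cyp61- these shares were 54.0%, 63.9% and 61.0%, against 12.2%, 9.63% and 9.49%. Library B of the double mutant again gave the weakest values. In a letter both differences use the same wild type (N) library.

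**Figure D3:**
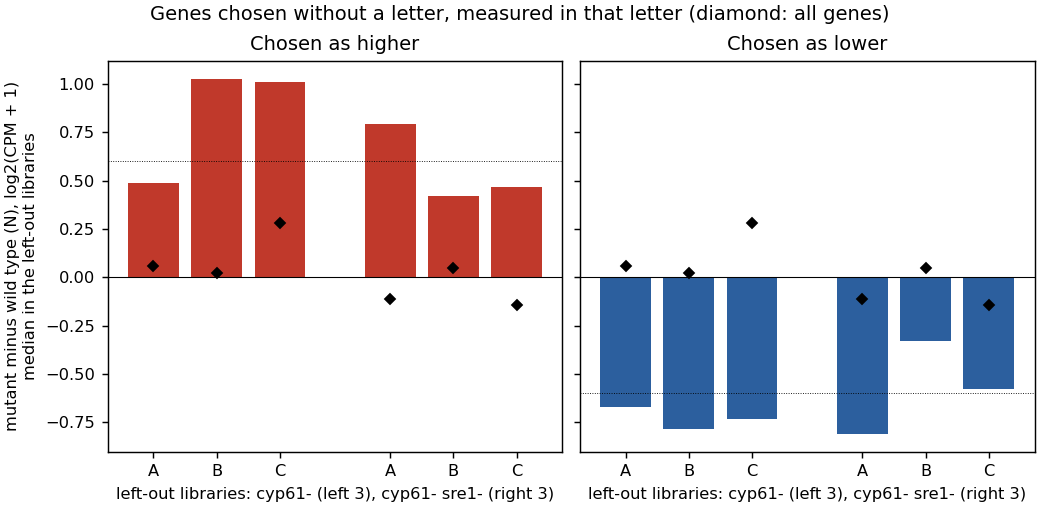
Median difference from wild type (N), in log2(CPM + 1), in the libraries of a letter for genes chosen as higher (left panel) or lower (right panel) without that letter, with all genes as diamonds and the rule's 0.6 as a dotted line. Every bar points in the chosen direction, from 0.42 to 1.03 for higher genes and from -0.81 to -0.33 for lower genes.

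Membership was sensitive to single libraries. Leaving out each of the 9 libraries in turn, 17 of the 49 higher and 31 of the 84 lower members met the rule every time. The higher list shrank to 32 genes without double mutant A and grew to 80 without double mutant C, and the lower list ran from 60 to 112. With TMM scaling, which sets most genes level between libraries, 71 genes were higher and 63 lower, of which 43 and 53 were members. It moved the median of all genes tested, relative to wild type (N), by -0.13 in cyp61-, 0.07 in the double mutant, -0.22 in the tagged strain, 0.38 in wild type (Ne) and 0.31 in sre1-.

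Where SRE1 alone was deleted, few genes of any kind passed the test, members included. The comparison of sre1- with wild type (Ne) shares no library with the rule and lies inside a set of count tables. None of the 49 higher members and 1 of the 84 lower members was called by edgeR at an adjusted p under 0.05, against 0.225% of all genes tested (0.0482% higher and 0.177% lower). DESeq2 also called 0 and 1, with 25 genes called in all. At an unadjusted p under 0.05 there were 6 higher and 5 lower members, that is 12.2% and 5.95%, against 4.91% of all genes. These counts move with single libraries: they were 12 and 21 without wild type (Ne) C, where 1005 of 6238 genes passed. Without wild type (Ne) B they were 2 and 1, where 241 of 6237 genes passed. Without both C libraries they were 9 and 13, where 518 of 6236 genes passed. The replicate block pairs libraries by letter, unlike the main fit. With only these groups and that block, 13 higher and 8 of 78 lower members passed, where 502 of 6162 genes did. The median log2 fold change was 0.19 in the higher members and -0.13 in the lower, against 0.01 over all genes. The higher members' median ran from -0.03 without sre1- C to 0.37 without wild type (Ne) C and so turned sign without sre1- C alone. Without both C libraries it was 0.23. The lower members' median was 0.02 without wild type (Ne) B. Members called numbered 3, all lower members, without wild type (Ne) C, where 37 genes were called in all. They numbered 2 without both C libraries, where 35 genes were called in all.

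The called member, g1283 on contig 3, is a low transcript. It stood at 4.35, 6.56 and 2.09 CPM in wild type (Ne) and at 20.0, 28.7 and 12.7 CPM in sre1-. The groups did not overlap, and the log2 fold change was 2.18 ± 0.39 (SE, edgeR adjusted p = 0.0220). The call was lost with only these groups in the fit, without wild type (Ne) A and without sre1- A or B, where adjusted p ran from 0.0847 to 0.731 and the log2 fold change from 1.91 to 2.16. Over all its alternatives it ran from 0.000134 to 0.731. It rose in sre1- and was chosen for being low in both cyp61- strains, at 0.550 ± 0.369 CPM in cyp61- and 0.571 ± 0.187 in the double mutant against 1.41 ± 0.283 in wild type (N).

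A higher member with a large but uncalled value was g2407 on contig 8, singled out after its values were seen. Its log2 fold change in sre1- was 3.10 ± 1.08 (edgeR adjusted p = 0.934). It stood at 4263 CPM in sre1- C against 101 and 98.0 in A and B, and at 318 CPM in wild type (Ne) C against 74.0 and 84.0. Both C libraries lay far above the others of their group. Without sre1- C the log2 fold change was -0.84, and without both C libraries 0.31.

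Whether interrupting CYP61 acts when SRE1 is absent would be read from the double mutant against sre1-, which crosses the sets of count tables. With TMM scaling the median difference there was 0.25 in the higher members and -0.03 in the lower, against 0.05 over all genes. The double mutant lay above sre1- in 33 of the 49 higher and 42 of the 84 lower members. Taking off the difference between sre1- and wild type (Ne) from that between the double mutant and wild type (N) gave 0.66 and -0.64, against -0.02, but that value contains a contrast of the rule. The rule itself takes wild type (N) as the control of both mutants.

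Against wild type (Ne), though less so against wild type (N), higher members were mostly low in the tagged strain. Against wild type (Ne), with no library of the rule, edgeR called 29 of the 49 lower (59.2%, against 28.6% of all genes tested) and 6 higher (12.2%, against 30.3%), where 59% of all genes tested were called in either direction. Their median log2 fold change was -0.94, against 0.01 over all genes, and 41 of the 49 were negative. Gene g5274 stood at 4257, 3984 and 7175 CPM in wild type (Ne) and at 1330 (A), 1701 (B) and 1598 (C) in the tagged strain. Gene g908 stood at 2416, 2136 and 2623 CPM and at 647, 897 and 1004. In both genes every tagged library lay below every wild type (Ne) library. The log2 ratio of these mean CPM was -1.74 for g5274 and -1.49 for g908. The TMM-scaled fit gave larger falls, with log2 fold changes of -2.41 ± 0.33 (edgeR adjusted p = 1.55e-05) and -2.15 ± 0.29 (edgeR adjusted p = 1.61e-05), and the size therefore depends on the scaling. Without wild type (Ne) C the fit gave -1.99 for both genes. Gene g3012 had -1.60 ± 0.69 and did not pass (edgeR adjusted p = 0.0572), with -0.48 without wild type (Ne) C. Gene g3013 passed with -1.26 ± 0.48 (edgeR adjusted p = 0.0315). That call was lost without wild type (Ne) C at -0.61 (edgeR adjusted p = 0.274) and also without tagged A or B (0.0931 and 0.0751). Without TMM scaling, the log2 ratio of mean CPM was -0.90 for g3012 and -0.58 for g3013. Leaving out wild type (Ne) C made these ratios 0.06 and -0.05.

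This comparison crosses the sets, so strain and set cannot be told apart. Inside the set, against wild type (N), whose libraries also chose the members, the tagged strain had a median difference in log2(CPM + 1) of -0.13 in the higher members, against 0.20 over all genes, with a range of -2.53 to 2.75. It lay below wild type (N) in 29 and above in 20 of the 49, against 2382 below and 3923 above of all 6469 genes. In the edgeR comparison with wild type (Ne), the 29 members called lower became 25 to 33 over the alternatives planned. Genes called in all, in either direction, then numbered 3046 to 3778. Without tagged A and wild type (Ne) C together, 24 members were called lower, with 3564 genes called in all. The median log2 fold change of that comparison, -0.94 in the main fit, was nearest to 0 without wild type (Ne) C, at -0.67.

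The lower members were mixed in the tagged strain, with more called lower than higher. Against wild type (Ne), 30 of the 84 were called lower (35.7%, against 28.6% of all genes tested) and 19 higher (22.6%, against 30.3%). Their median log2 fold change was -0.23, and values ran from -7.56 to 2.67. Without tagged A and wild type (Ne) C together, 35 were called lower and 10 higher, where 3564 of 6236 genes were called in either direction. Gene g216 fell by 4.45 ± 0.68 (edgeR adjusted p = 4.30e-05) and g3682 by 1.03 ± 0.24 (edgeR adjusted p = 0.00170). For g216, where wild type (Ne) C stood far above A and B, the log2 fold change was -2.67 without that library (edgeR adjusted p = 6.34e-06). For g3682 it was then -1.18. The log2 ratio of mean CPM, without TMM scaling, was -3.71 for g216 and -0.41 for g3682.

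Side by side, with wild type (N) shared by all these differences and by the rule, the lower members had medians of -0.58 in the tagged strain, -0.96 in wild type (Ne) and -0.99 in sre1-, against 0.20, -0.39 and -0.30 over all genes. In the tagged strain 66 of the 84 lower members lay below wild type (N) and 18 above, against 2382 below and 3923 above of all 6469 genes. The higher members had medians of 0.04 in wild type (Ne) and 0.38 in sre1-. Levels across the sets move with the scaling given above.

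**Figure D4:**
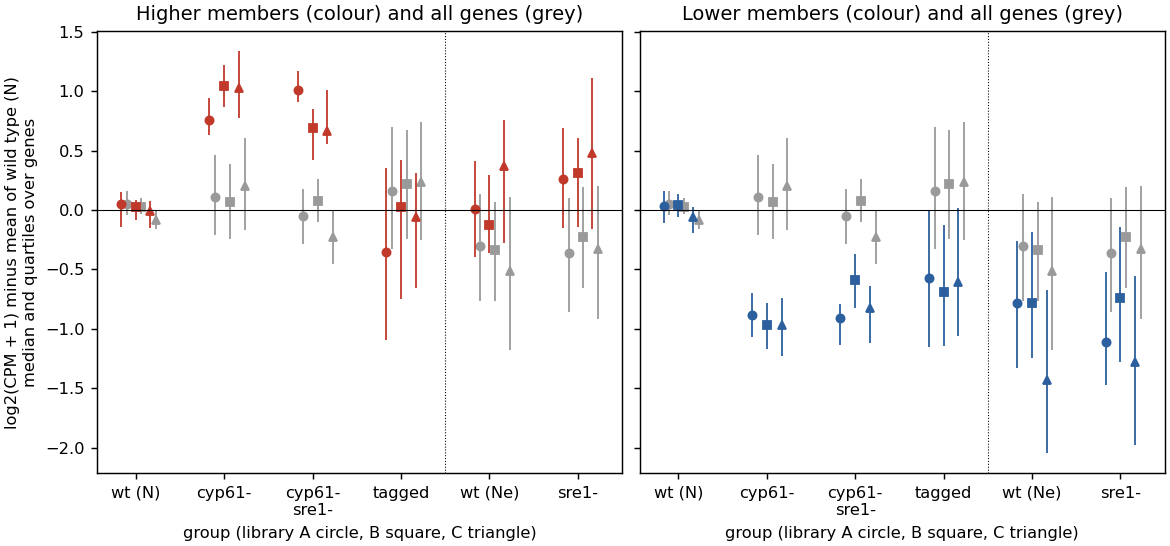
Deviation of each library from the mean of wild type (N), in log2(CPM + 1), as the median (symbol) and quartiles (line) over the 49 higher members (left panel, red), the 84 lower members (right panel, blue) and all genes (grey). The dotted line parts the sets of count tables. The medians of the higher members lie above 0.6 in all 6 mutant libraries and between -0.36 and 0.02 in the tagged strain.

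**Figure D5:**
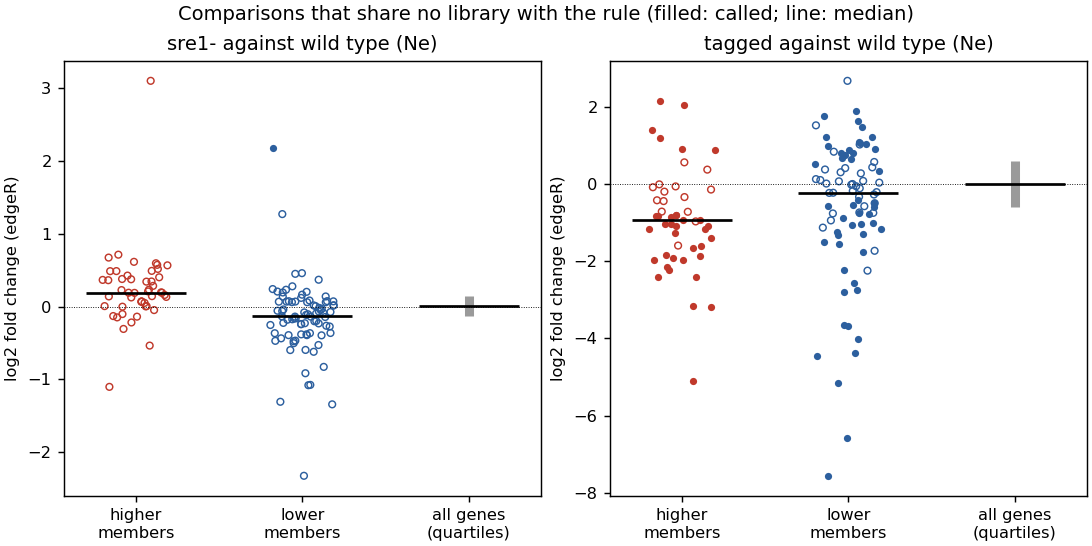
Log2 fold changes of edgeR for each member in sre1- (left panel) and the tagged strain (right panel) against wild type (Ne), filled where called, with the median as a black line and the quartiles of all genes tested in grey. In sre1- 1 point is filled. In the tagged strain the higher members centre at -0.94 and the lower members at -0.23.

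Abundance was taken over the libraries that chose the members and is given as a description. The higher members had a median of 54.4 CPM over the 9 libraries of the rule (1.71 to 4033), near the 46.3 CPM of all genes, and 41 of 49 reached 10 CPM (83.7%, against 86.4%). The lower members had a median of 25.4 CPM (0.296 to 640.4), and 53 of 84 reached 10 CPM (63.1%). In 9 lower members the mean stayed under 1 CPM. All 133 passed the filter on low counts, which a gene can pass through the group where it is high.

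By contig, the higher members were spread over 11 of the 22 contigs, those numbered 0 to 10, which hold nearly all genes. The lower members were spread over 12, with 16 of 84 on contig 1 (19.0%, against 12.2% of all genes). Contigs 6 and 9 held 2 each (2.38%, against 7.73% and 5.39% of all genes). Members adjacent by number on the same contig formed 3 pairs among the higher members, 6 genes in all, namely those around g3012, g3921 and g3933. The pairs around g3921 and g3933 are the genes above that are uncertain as separate genes. The lower members formed 6 such pairs, 12 genes in all, g215 with g216 among them. Such pairs were not counted over all genes, so nothing is read from these counts. Numbers run within contigs, but gene positions were not used here.

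Across the 6 group means, the genes most like g3012 among 5533 others of at least 10 CPM were g3415 (Pearson correlation 0.990), not a member, and g3008 (0.986), a higher member, both on contig 0. For g3682 they were g3292 on contig 0 (0.989) and g6241 on contig 10 (0.981), neither a member. With 6 points and so many genes compared, these values describe likeness only.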

How the data were processed

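The members and lists were chosen with earlier results of these data known. The authors deposited whole-number total counts per gene, without normalization, per the file headers, covering 6469 genes; the assembly is called QXden1.PacBioOnly. The submitters' processing notes name Bowtie2 2.3.5.1, SAMtools, DESeq2 and edgeR with no role. Counter, gene models and strand setting were not given in the sources used here. Columns of wild type (Ne) are headed with the names of wild type (N) and were assigned through the table that their labels list. The 4 ChIP-exo peak lists and the 11 ChIP-exo libraries were not used, since genes have no coordinates here.

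CPM used column sums and a pseudocount of 1. The main test was edgeR's quasi-likelihood test (edgeR 4.0.16 and limma 3.58.1 in R 4.3.3), fitted once to all 18 libraries by group, after TMM scaling and a filterByExpr filter that left 6228 genes. Adjusted p is Benjamini-Hochberg over all genes tested, called under 0.05. Each SE is the fold change divided by the square root of F. The fitting step was tested on simulated data. Counts limit precision for members under 1 CPM. Named members had at least 10 CPM over the 9 libraries and all 6 mutant libraries beyond wild type (N), ranked by the smaller difference (2 per direction). The 2 of largest CPM and those called in sre1- were added. No gene list was run.

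Same-letter libraries of sre1- and wild type (Ne) deviated together (correlations 0.421, 0.572 and 0.670). The main fit, by group only, did not pair them, and pairing by the replicate block was an alternative. Same-letter libraries of the tagged strain and wild type (Ne) did not deviate together (-0.099 to 0.036). No library was a repeat of another in its group (chi-square per gene 17.0 to 319). Alternatives were DESeq2 1.42.0, other scaling, filters, pseudocounts and thresholds, the replicate block and leaving out libraries.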

Additional observations from a re-analysis of the deposited data

How the results depend on the processing

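Of 15 alternatives, the count of 49 higher members stayed within 1.5 times under 11 and that of 84 lower members under 13. A threshold of 1 left 4 and 13 genes, a limit of 0.3 between the mutants left 32 higher genes, and a pseudocount of 5 CPM left 47 lower genes. Leaving out a library gave 32 to 80 higher and 60 to 112 lower genes. TMM scaling turned the split of 49 to 84 into 71 to 63. The 84 members called in the tagged strain against wild type (Ne) were 73 to 83 without a library and 72 to 89 otherwise. Over all genes these counts were 3673, 3210 to 3664 and 3046 to 3778. The 1 member called in sre1- was 0 with only the 2 groups in the fit and 0 to 3 without a library. By a choice made after seeing the data, it was 2 without both C libraries. Over all genes the sre1- counts were, in the same order, 14, 1, 3 to 37 and 35.

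With the replicate block, 1 member was called in sre1- and 85 in the tagged strain, where 11 and 3718 of 6228 genes were called. A fit of only the sre1- and wild type (Ne) libraries with the block, chosen after seeing the data, called 1 member among 20 genes. Those groups without the block gave 0 members, with 1 gene called in all. In the tagged strain, whose letters share only a name with wild type (Ne), g3012 was called with the block (edgeR adjusted p = 0.0151). The causes were not tested. The depth of single libraries limits members under 1 CPM.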
